A study of Homo sapiens with 6 samples.

Results

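The 10 genes described here encode the immediate early transcription factors of the AP-1 group with EGR1 and NR4A1. They were taken by symbol from the 20332 genes of the count table: JUN, JUNB and JUND of the JUN family, FOS, FOSB, FOSL1 and FOSL2 of the FOS family, ATF3, EGR1 and NR4A1. All 10 had counts high enough to be tested, among 12941 genes tested in all. RNA-seq was performed on Huh-7, an established human hepatocellular carcinoma cell line, in 2 groups of 3 samples, a negative control group (NC) and a group with stable overexpression of the small GTPase RAC3. The study made its stable RAC3 lines with a lentivirus carrying RAC3, the genotype of the NC samples is labelled WT, and neither what the controls received nor whether the lines are clones or pools is stated. The genotype labels of RAC3 replicates 2 and 3 read RAC4 and RAC5 overexpression, whereas their titles read RAC3, and the titles were followed. RAC3 itself was at 35.6, 31.4 and 32.8 CPM (normalized counts scaled to the library size) in the NC samples and at 233, 240 and 225 CPM in the RAC3 samples, a log2 fold change of 2.81 (edgeR adjusted p = 9.6e-18), and replicates 2 and 3 lay on either side of replicate 1. The 6 libraries held 13855762 to 18199888 counts, so that 3 counts corresponded to 0.167 to 0.215 CPM. All 12 hepatocyte markers examined were detected, and their summed level was 6158 to 6233 CPM in NC and 5666 to 6187 CPM in RAC3 cells. Singly, 7 of the 12 (58.3%) had an edgeR adjusted p below 0.05, 3 higher and 4 lower, against 28.5% of all genes. Transferrin (TF) was at a log2 fold change of -0.56 and FGB at 0.30. Of 12 markers of other cell types, 7 stayed below 1 CPM in every sample, among them PTPRC and CD3E of leukocytes and VWF and CDH5 of endothelium. The other 5 were detected in both groups, the stromal genes LUM (146 to 185 CPM), COL1A1 (32.6 to 39.3 CPM) and COL3A1 (0.999 to 2.08 CPM), the macrophage marker CD68 (4.57 to 8.81 CPM) and the endothelial marker PECAM1 (2.26 to 3.34 CPM). The summed level of these 12 markers was 197 to 211 CPM in NC and 221 to 231 CPM in RAC3 cells, and the part of this difference in the results for the 10 genes was not tested.

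Immediate early genes are transcribed within minutes of a growth factor, serum or stress signal, from factors such as SRF, the ETS factors and CREB that are already present in the cell, and their transcripts decay fast. JUN and FOS family proteins pair through leucine zippers into AP-1, which binds the TGANTCA element. JUN proteins pair with each other or with FOS proteins, whereas FOS proteins need a JUN partner, and ATF3 pairs with JUN proteins to bind related elements. EGR1 is a zinc finger factor of GC-rich sites, and NR4A1 is an orphan nuclear receptor. RAC GTPases are known to signal through PAK and JNK kinases toward JUN. The cells were stable lines and no acute stimulus is described, so the values are levels in stable cultures and not an induction.

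The sequences before the transcription start of the JUN family, ATF3 and EGR1 are shown for the matches marked in capitals, and not as an account of the changes below. The RefSeq promoter table (GRCh38.p14) held 11 starts of 9 of the 10 genes, without FOSL1. In JUNB the capitals mark a TATA box, TATAAA, which begins 31 bases before the start (chr19:12791236-12791485, plus strand). In JUND they mark a full cAMP response element (CRE), TGACGTCA, 200 bases before the start (chr19:18281623-18281872, minus strand). In EGR1 they mark a GCGNGGGCG element, the site of EGR1 itself, at 198 bases and CArG boxes, the element bound by SRF, at 105 and 83 bases before the start (chr5:138465229-138465478, plus strand).
JUNB: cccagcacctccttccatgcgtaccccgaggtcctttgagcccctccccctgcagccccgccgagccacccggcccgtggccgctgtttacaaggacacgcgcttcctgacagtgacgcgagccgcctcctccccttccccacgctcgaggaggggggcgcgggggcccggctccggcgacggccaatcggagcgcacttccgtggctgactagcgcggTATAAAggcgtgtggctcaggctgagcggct
JUND: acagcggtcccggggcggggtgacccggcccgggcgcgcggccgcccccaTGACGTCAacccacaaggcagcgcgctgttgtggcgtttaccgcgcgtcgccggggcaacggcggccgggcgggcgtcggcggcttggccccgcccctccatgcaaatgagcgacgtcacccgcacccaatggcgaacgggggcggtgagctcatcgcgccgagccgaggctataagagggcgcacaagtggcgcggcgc
EGR1: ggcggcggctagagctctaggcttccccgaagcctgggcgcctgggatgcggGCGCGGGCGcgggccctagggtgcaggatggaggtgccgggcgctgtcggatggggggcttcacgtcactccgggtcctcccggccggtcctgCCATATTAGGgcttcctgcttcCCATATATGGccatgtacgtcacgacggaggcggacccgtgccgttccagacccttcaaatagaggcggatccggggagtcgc
JUN and the upstream start of ATF3 carried the same octamer, TGACATCA, shown in capitals within 30 bases (JUN chr1:58784096-58784125, minus strand, inside the GENCODE 29 exon of the gene, and ATF3 chr1:212565273-212565302, plus strand, before its first GENCODE 29 exon).
JUN: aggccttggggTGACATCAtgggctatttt
ATF3: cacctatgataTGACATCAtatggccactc
Both strands of the 250 bases before 35116 RefSeq starts were searched. TATAAA was in 10.72% of them, TGACGTCA in 1.65%, GCGNGGGCG in 8.41%, the CArG box in 1.16%, TGACATCA in 2.37% and the AP-1 element TGANTCA in 6.57%, and the octamer was added to the search after the sequences had been read. FOS and FOSB also had TATAAA, beginning 33 and 30 bases before their starts, as did the downstream start of ATF3 at 230 bases. No match to these letters lay in the windows of FOSL2 and NR4A1. These matches describe the sequence and say nothing about binding in Huh-7 cells.

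The NR4A1, JUNB and JUND transcripts were lower in RAC3-overexpressing cells, by log2 fold changes of -0.74, -0.57 and -0.35, and the ATF3 and FOSL2 transcripts were higher, by 0.40 and 0.37. FOS, FOSB, FOSL1, JUN and EGR1 did not pass the test. Called genes are those with a Benjamini-Hochberg adjusted p below 0.05 in the edgeR quasi-likelihood test over all 12941 genes. Thus 5 of the 10 genes (50%) were called, 2 higher and 3 lower, where 28.5% of all genes tested were called, 13.3% higher and 15.3% lower. The study's own threshold, a fold change above 1.5 with an unadjusted p below 0.05, was applied to the same edgeR fit. By it only NR4A1 (10%) was called, where 4.68% of all genes were, 1.68% higher and 2.99% lower. These shares are not the study's own, which reported other counts at this threshold. The groups did not overlap for 6 of the 10 genes (60%), 2 higher and 4 lower, where 42.5% of all genes had groups without overlap. The median log2 fold change was -0.20 over the 10 genes and 0.00 over all genes, and the median of the absolute log2 fold changes was 0.38 and 0.16. With the trend of fold change on GC content removed, described below, the median log2 fold change was -0.06 over the 10 genes and 0.00 over all genes. The sample labelled NC1 gave the highest of the 3 control values in 8 of the 10 genes and the lowest in 1, FOSB. The 5 called genes remained called in all 6 fits that each left out 1 sample, where 2630 to 3311 of all genes were called. The study calls the RNA samples of each group independent, but separate cultures are not named, so the p-values measure the spread between these samples, which may be technical.

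**Figure D1:**
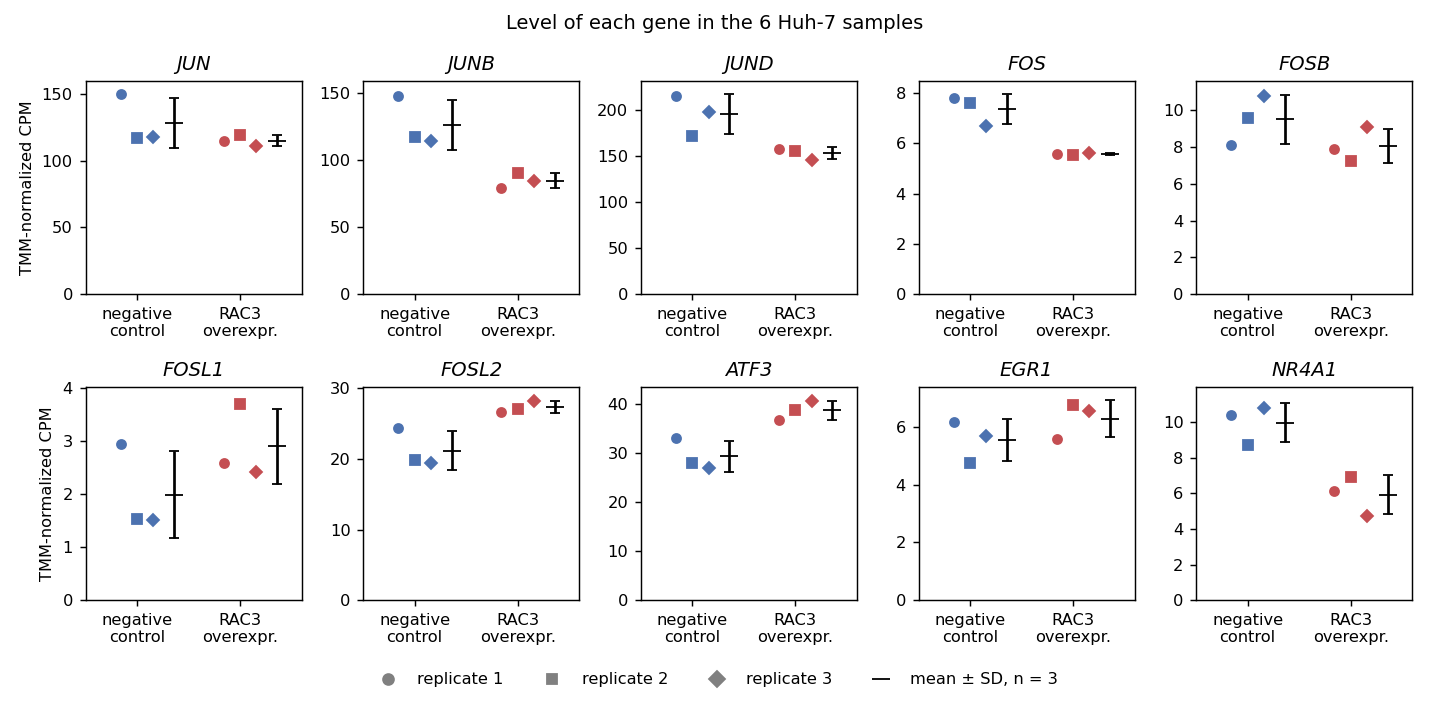
TMM-normalized CPM of the 10 genes (vertical axes, linear from 0) in the 3 NC samples (blue) and the 3 RAC3 samples (red), with marker shape giving the replicate number and black bars the mean ± SD (n = 3). The groups separate in JUNB, JUND, FOS, FOSL2, ATF3 and NR4A1 and overlap in the other 4 genes.

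The 10 genes differed widely in level. They were ordered on the FPKM scale of the authors' table, which scales by lengths that are not given. FPKM per CPM varied among the samples from 0.504 to 0.679 for JUND and from 1.04 to 1.09 for RAC3, so the order rests on the authors' values. JUND (92.8 to 109 FPKM in NC cells), JUNB (61.4 to 78.8 FPKM) and JUN (38.5 to 49.1 FPKM) were the most abundant. ATF3 (18.7 to 22.9 FPKM) and NR4A1 (4.29 to 5.09 FPKM) followed, and the ranges of these 5 did not overlap. FOS, FOSB and FOSL2 lay together between 2.92 and 3.91 FPKM and could not be ordered by their ranges, and neither could EGR1 and FOSL1, between 0.879 and 1.91 FPKM. JUN family transcripts therefore summed to 213 ± 21.4 FPKM (SD, n = 3) in NC cells against 11.3 ± 0.726 FPKM for the FOS family. Counts per sample were lowest for FOSL1, at 23 to 61, and highest for JUND, at 2065 to 3554. Between them the counts did not keep the FPKM order, with 297 to 348 NC counts for FOSL2 and 131 to 194 for NR4A1. In the RAC3 samples the JUN family sum was 175 ± 8.42 FPKM, without overlap between the groups (168 to 185 against 194 to 236 FPKM), and the FOS family sum was 12.2 ± 0.939 FPKM, with overlap.

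Of the JUN family, JUNB (ENSG00000171223, a single exon on chr19:12791496-12793315 in GENCODE 29 on GRCh38), a JUN protein known as a weaker activator than JUN, changed most. It was at 148, 117 and 114 CPM in NC1 to NC3 and at 79.0, 90.4 and 84.7 CPM in the RAC3 samples. All 3 RAC3 samples lay below all 3 controls, and NC1 was the highest control. The means were 126 ± 19.1 and 84.7 ± 5.70 CPM (SD, n = 3), a log2 fold change of -0.57 (SE 0.0794, 95% interval -0.74 to -0.41, edgeR adjusted p = 2.9e-05), and it ran from -0.65 to -0.45 when each sample was left out in turn. HOOK2, which encodes a microtubule linker on the opposite strand, shares 259 exonic bases with JUNB. HOOK2 fell as well, from 27.8 ± 1.13 to 18.6 ± 1.34 CPM (log2 fold change -0.58, edgeR adjusted p = 6.9e-05), and the library kit is not described as marking strand, so reads of the shared bases cannot be told apart.

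JUND (ENSG00000130522, chr19:18279760-18281622, a single merged exon), the JUN protein usually present in resting cells, was the most abundant of the 10 genes. It was at 215, 172 and 198 CPM in NC and at 158, 155 and 146 CPM in RAC3 cells. The groups did not overlap, but NC2 was near the RAC3 samples. The means were 195 ± 21.7 and 153 ± 5.96 CPM, a log2 fold change of -0.35 (SE 0.0625, 95% interval -0.48 to -0.22, edgeR adjusted p = 0.00037). JUND transcripts are the richest in G and C of the 10 (69.7%), and with the trend of fold change on GC content removed, described below, the log2 fold change was -0.08 (edgeR adjusted p = 0.39). On the FPKM scale the JUND groups overlapped (92.8 to 109 against 81.5 to 99.5 FPKM), with a log2(FPKM + 0.1) difference of -0.23 (limma adjusted p = 0.1).

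JUN (ENSG00000177606, a single exon on chr1:58780788-58784327, minus strand), the founding member of the family and the substrate of JNK, was at 150, 117 and 118 CPM in NC and at 115, 119 and 111 CPM in RAC3 cells. NC1 stood apart and the other controls lay within the RAC3 range. The log2 fold change was -0.16 (SE 0.0732, 95% interval -0.31 to -0.0037, edgeR adjusted p = 0.12) and was -0.03 without NC1. A change in JUN beyond the spread between samples was therefore not shown, and the interval leaves room for a decrease of up to 0.31 on the log2 scale.

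In proportion, JUNB made up 33.3, 32.3 and 29.3% of the JUN family FPKM in NC and 26.3, 29 and 25.5% in RAC3 cells. The JUNB groups did not overlap, while the shares of JUN (19.7 ± 1.15% and 22.7 ± 1.74%) and JUND (48.6 ± 3.23% and 50.4 ± 3.33%) did. Within each library, which needs no scaling between libraries, there were 98.7, 99.9 and 96.5 JUNB counts per 100 JUN counts in NC and 68.8, 76.1 and 76.1 in RAC3 cells. NC1, high in both genes, did not stand apart in this ratio. These ratios were chosen after the values of the genes had been seen and carry no test. Like the count ratios given further below, they were not adjusted for the trend of fold change on GC content. JUN transcripts are at 56.7% GC and JUNB transcripts at 64.9%.

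Of the FOS family, FOSL2 (ENSG00000075426, chr2:28392448-28417312, plus strand, 7 merged exons), which encodes FRA2, a FOS protein without the strong activation domain of FOS, was higher. It was at 24.3, 19.8 and 19.4 CPM in NC and at 26.6, 27.0 and 28.2 CPM in RAC3 cells. Every RAC3 sample lay above every control, with NC1 closest. The means were 21.2 ± 2.72 and 27.3 ± 0.861 CPM, a log2 fold change of 0.37 (SE 0.0922, 95% interval 0.18 to 0.56, edgeR adjusted p = 0.0053). The log2(FPKM + 0.1) difference was 0.38 with a limma adjusted p of 0.065, a call lost on that scale.

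FOS (ENSG00000170345, chr14:75278774-75282230, plus strand), the short-lived partner that defines acute AP-1 induction, was low, at 109, 114 and 120 counts in NC and 99, 91 and 79 counts in RAC3 cells. These were 7.81, 7.59 and 6.69 CPM and 5.57, 5.53 and 5.60 CPM. The RAC3 samples lay below the controls without overlap. The log2 fold change was -0.40 (SE 0.156, 95% interval -0.73 to -0.07), but the edgeR adjusted p of 0.062 missed the threshold, and it did so with each sample left out as well.

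FOSB (ENSG00000125740, chr19:45467995-45475179, plus strand), a FOS protein with a stable splice form, was at 8.10, 9.59 and 10.8 CPM in NC and at 7.88, 7.23 and 9.08 CPM in RAC3 cells, with overlap. The log2 fold change was -0.25 (95% interval -0.55 to 0.06, edgeR adjusted p = 0.22). FOSL1 (ENSG00000175592, chr11:65892049-65900573, minus strand), which encodes FRA1, known from invasive carcinoma cells, had the fewest counts of the 10, at 41, 23 and 27 counts in NC and 46, 61 and 34 counts in RAC3 cells. The corresponding levels were 2.94, 1.53 and 1.51 CPM against 2.59, 3.70 and 2.41 CPM, and NC1 lay among the RAC3 samples. The log2 fold change of 0.57 had a 95% interval from -0.06 to 1.19 (edgeR adjusted p = 0.17), and without NC1 it was 0.93 with an edgeR adjusted p of 0.043. The FOSL1 call therefore rested on whether NC1 was included.

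FOSL2 and FOS were also set against each other, a pair chosen after the values of both had been seen, so the direction follows from the choice and carries no test. There were 311, 261 and 290 FOSL2 counts per 100 FOS counts in NC and 477, 489 and 504 in RAC3 cells. By FPKM, FOS made up 31.8 ± 3.52% of the family in NC and 25 ± 1.53% in RAC3 cells, and FOSL2 27.9 ± 0.977% and 34.0 ± 2.25%, both without overlap between the groups, although the FPKM of FOS itself overlapped (3.13 to 3.85 against 2.76 to 3.40 FPKM).

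ATF3 (ENSG00000162772, chr1:212565334-212620777, plus strand), a stress-induced bZIP factor that often represses its targets, was at 33.0, 28 and 27.0 CPM in NC and at 36.8, 38.8 and 40.6 CPM in RAC3 cells. All RAC3 samples lay above all controls. The means were 29.3 ± 3.19 and 38.7 ± 1.92 CPM, a log2 fold change of 0.40 (SE 0.0813, 95% interval 0.23 to 0.57, edgeR adjusted p = 0.001). Set against JUNB, likewise a pair chosen after its values were seen, there were 22.2, 24.1 and 23.7 ATF3 counts per 100 JUNB counts in NC and 46.6, 42.9 and 48.0 in RAC3 cells. The ratio of FOSL2 to JUNB moved alike, from 16.4, 17.0 and 17.0 to 33.6, 29.9 and 33.3 per 100.

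NR4A1 (ENSG00000123358, chr12:52022832-52059507, plus strand), the nuclear receptor also called NUR77, had the largest fold change of the 5 called genes. It was at 10.4, 8.72 and 10.8 CPM in NC and at 6.13, 6.92 and 4.75 CPM in RAC3 cells, or 131 to 194 against 67 to 114 counts. The groups did not overlap. The means were 9.98 ± 1.11 and 5.94 ± 1.10 CPM, a 1.67-fold lower level in RAC3 cells (log2 fold change -0.74, SE 0.158, 95% interval -1.07 to -0.41, edgeR adjusted p = 0.0017). NR4A1 shares 754 exonic bases with the long noncoding RNA gene AC025259.3 on the opposite strand, which was not analysed here, and reads of those bases cannot be told apart either.

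EGR1 (ENSG00000120738, chr5:138465490-138469315, plus strand, 2 exons), whose CArG boxes are shown above, was at 6.16, 4.73 and 5.69 CPM in NC and at 5.57, 6.74 and 6.53 CPM in RAC3 cells. The groups overlapped, and the log2 fold change was 0.18 (SE 0.171, 95% interval -0.18 to 0.54, edgeR adjusted p = 0.46). A change in EGR1 beyond the spread between samples, at 71 to 111 counts per sample, was therefore not shown. In a ratio chosen in the same way, there were 169, 185 and 190 NR4A1 counts per 100 EGR1 counts in NC and 110, 103 and 72.8 in RAC3 cells, without overlap. Over the 6 samples, the genes whose log2 levels were most like EGR1 were RPS19BP1 (Pearson r = 0.989), SLC38A7 (0.983), FAM89A (0.983), PYCR3 (0.982) and DEXI (0.982), and those most like JUN were TNK2 (0.992), LEMD2 (0.986), CLN6 (0.983), DTX3 (0.979) and TRPV4 (0.978). With 6 samples and 11220 genes compared, values this high are a description of these libraries. None of the 10 named genes was itself called between the groups, which largely follows from their choice by likeness to EGR1 and JUN, themselves not called.

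**Figure D2:**
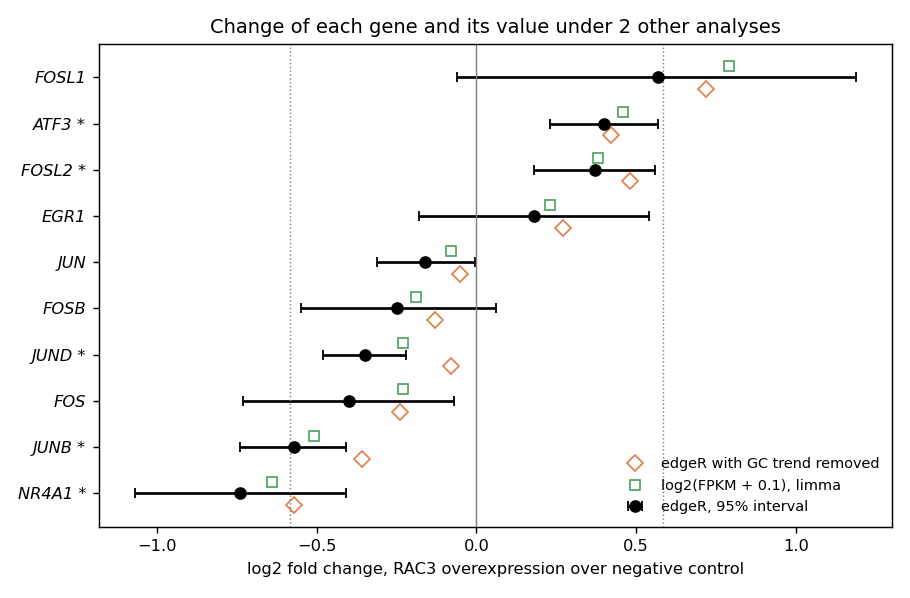
Log2 fold change of the 10 genes, RAC3 overexpression over NC (horizontal axis), with 95% intervals from edgeR (black), the value with the GC trend removed (orange diamonds) and the limma value on log2(FPKM + 0.1) (green squares). Asterisks mark the 5 called genes, dotted lines a fold of 1.5, and JUND moves from -0.35 to -0.08 when the GC trend is removed.

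Fold changes over all genes depended on the base composition of the transcript. Their median was 0.17 among 1187 genes with transcripts below 40% GC and -0.30 among 49 genes at 70% GC or more, and between 55 and 60% GC, where JUN, FOSB, FOSL2 and EGR1 lie, it was -0.12. The 3 called genes that were lower have transcripts of 61.4% (NR4A1), 64.9% (JUNB) and 69.7% GC (JUND), and the 2 that were higher of 50.9% (ATF3) and 56.5% GC (FOSL2). With the trend removed in every library, JUNB had a log2 fold change of -0.36 (edgeR adjusted p = 0.00039), NR4A1 -0.57 (0.013), ATF3 0.42 (0.00067) and FOSL2 0.48 (0.0005), and all 4 remained called. NR4A1 was then just below a fold of 1.5, and FOSL1, at 0.72 (edgeR adjusted p = 0.088), was the gene past the study's threshold. JUND did not, and FOS was at -0.24 (edgeR adjusted p = 0.29). In this fit 4 of the 10 genes (40%) were called, where 20.5% of all genes were.

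**Figure D3:**
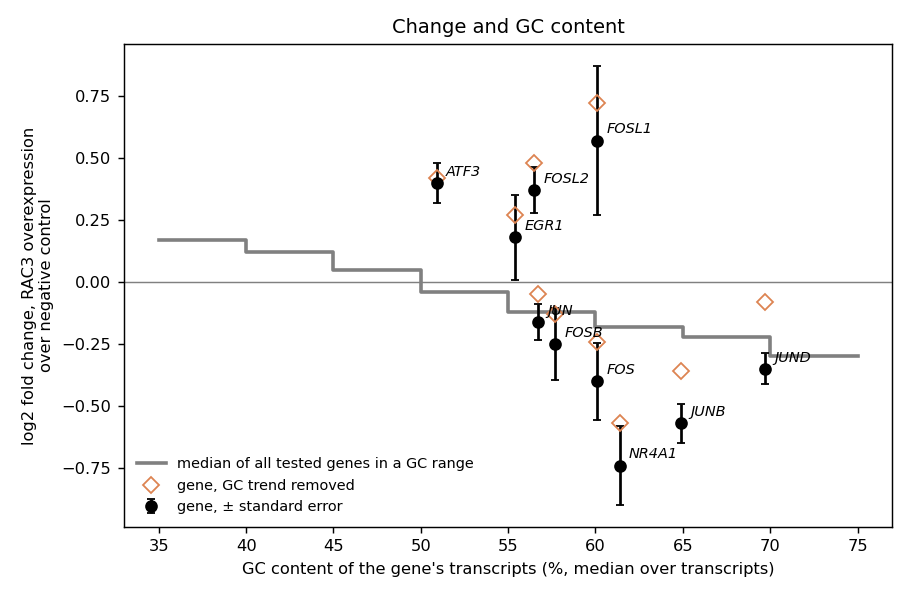
Log2 fold change, RAC3 overexpression over NC (vertical axis, bars are standard errors), against the GC content of each gene's transcripts (horizontal axis, percent, with the outer ranges below 40% and from 70% drawn 5 points wide), with the median of all tested genes in each GC range as a grey line. Orange diamonds show the 10 genes with the trend removed. JUN, FOSB and JUND lie closest to the grey line, while ATF3, FOSL2, JUNB and NR4A1 lie away from it, as do FOSL1 and EGR1, which were not called.

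Other immediate early genes moved in both directions. Of 41 listed, 36 were tested and 21 (58.3%) were called, 8 higher and 13 lower, against 28.5% of all genes, with a median log2 fold change of -0.09. With the GC trend removed, 19 (52.8%) were called, 9 higher and 10 lower, against 20.5% of all genes, and the median was 0.00. Among those higher were KLF4 (15.5 ± 1.52 to 26.3 ± 3.04 CPM, log2 fold change 0.76) and KLF6 (0.49), zinc finger factors, NFKBIZ, a nuclear IκB protein (36.1 ± 3.42 to 60.6 ± 1.87 CPM, 0.74), MYC, the growth regulator (0.46), PHLDA1 (0.54) and RHOB, a small GTPase (0.30), each with an edgeR adjusted p of at most 0.00012. PTGS2, the inducible cyclooxygenase, was at 1.81 ± 0.462 and 2.82 ± 0.478 CPM (0.65, edgeR adjusted p = 0.091), and passed the study's threshold with an unadjusted p of 0.031. Among those lower were IER5L (44.1 ± 9.0 to 27.1 ± 2.00 CPM, -0.69) and IER3 (-0.56), immediate early response genes, CCN2, a matricellular protein and known YAP and SRF target (759 ± 29.8 to 557 ± 18.9 CPM, -0.45), and ID3 (-0.45) and ID1 (-0.34), inhibitors of bHLH factors, each with an edgeR adjusted p of at most 9.9e-05. All of these named genes that were called, which leaves out PTGS2, remained called with the GC trend removed.

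Of 22 bZIP partners and repressors, 20 were tested and 7 (35%) were called, 4 higher and 3 lower, against 28.5% of all genes. NAB2, the corepressor that EGR1 induces and that restrains it, fell from 31.1 ± 6.07 to 19.3 ± 1.77 CPM (log2 fold change -0.69, edgeR adjusted p = 0.00018). NFE2L2, the oxidative stress factor NRF2 (172 ± 7.86 to 241 ± 19.7 CPM, 0.49), and its competitor BACH1 (0.37) rose, and TRIB3, a pseudokinase inhibitor of ATF4, fell by 0.45 on the log2 scale. The large MAF protein MAF was at 12 ± 2.45 and 16 ± 1.75 CPM, with overlap between the groups, and its log2 fold change of 0.41 (edgeR adjusted p = 0.024) was not called without NC2 (0.31, adjusted p = 0.13), NC3 (0.35, 0.099), RAC3 replicate 1 (0.34, 0.12) or RAC3 replicate 3 (0.40, 0.068), nor on log2(FPKM + 0.1) (0.19, limma adjusted p = 0.53). The smaller differences of CREB1 (0.20) and NFE2L1 (-0.17) were no longer called with the GC trend removed, a fit in which 6 of the 20 (30%), 3 higher and 3 lower, were called, against 20.5% of all genes.

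Of 31 upstream factors and kinases, 29 were tested and 14 (48.3%) were called, 6 higher and 8 lower, against 28.5% of all genes, but with the GC trend removed 7 (24.1%) were, against 20.5% of all genes. None passed the fold threshold in edgeR, where 4.68% of all genes did, or in DESeq2. In edgeR 16 of the 29 had an unadjusted p below 0.05, where 5079 of all 12941 genes did. MAPK3, which encodes ERK1, fell from 72.3 ± 3.91 to 52.5 ± 1.40 CPM (log2 fold change -0.46, edgeR adjusted p = 1.7e-05; -0.30 with the GC trend removed). The CREB coactivator CRTC3 (-0.34) fell, and the ETS factor ELK4 (0.31) and STAT3 (0.19) rose, and these 3 remained called with the GC trend removed, while STAT3 was at 0.15 without RAC3 replicate 1 (edgeR adjusted p = 0.051) and CRTC3 at -0.29 on log2(FPKM + 0.1) (limma adjusted p = 0.069). MAPK8, which encodes JNK1 (0.25), the kinase RPS6KA3 (0.17), MAP2K2, which encodes MEK2 (-0.28), and MEF2D (-0.29) did not.

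Of 38 genes known as targets of AP-1 or EGR1, 28 were tested and 16 (57.1%) were called, 6 higher and 10 lower, against 28.5% of all genes, with a median log2 fold change of -0.07. With the GC trend removed 13 (46.4%) were called, 6 higher and 7 lower, against 20.5% of all genes, and the median was 0.00. The EGF receptor ligands EREG (30.3 ± 0.824 to 52.8 ± 3.12 CPM, log2 fold change 0.80, edgeR adjusted p = 1.3e-07) and AREG (45.8 ± 4.17 to 68.8 ± 1.77 CPM, 0.59, 3.9e-06) rose. The cyclin gene CCND1 fell from 431 ± 11.1 to 301 ± 13.0 CPM (-0.52, 7.1e-08). IL11, at 1.18 ± 0.493 and 0.303 ± 0.173 CPM, rested on few counts (-1.90, SE 0.517, 0.0096), and was not called without NC1 (-1.62, 0.057) or RAC3 replicate 3 (-1.61, 0.051) or on log2(FPKM + 0.1) (-1.37, limma adjusted p = 0.13). Osteopontin (SPP1, 0.49) and the ERK phosphatase DUSP4 (0.23) were also higher, and PDGFB (-0.53), IGF2 (-0.35) and VIM (-0.31) lower. The chemokine gene CXCL8 (0.28) was called, but not with the GC trend removed (0.10), nor without NC2 (0.18), RAC3 replicate 2 (0.23) or RAC3 replicate 3 (0.26). All 4 lists were assembled with earlier results of these data known.

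**Figure D4:**
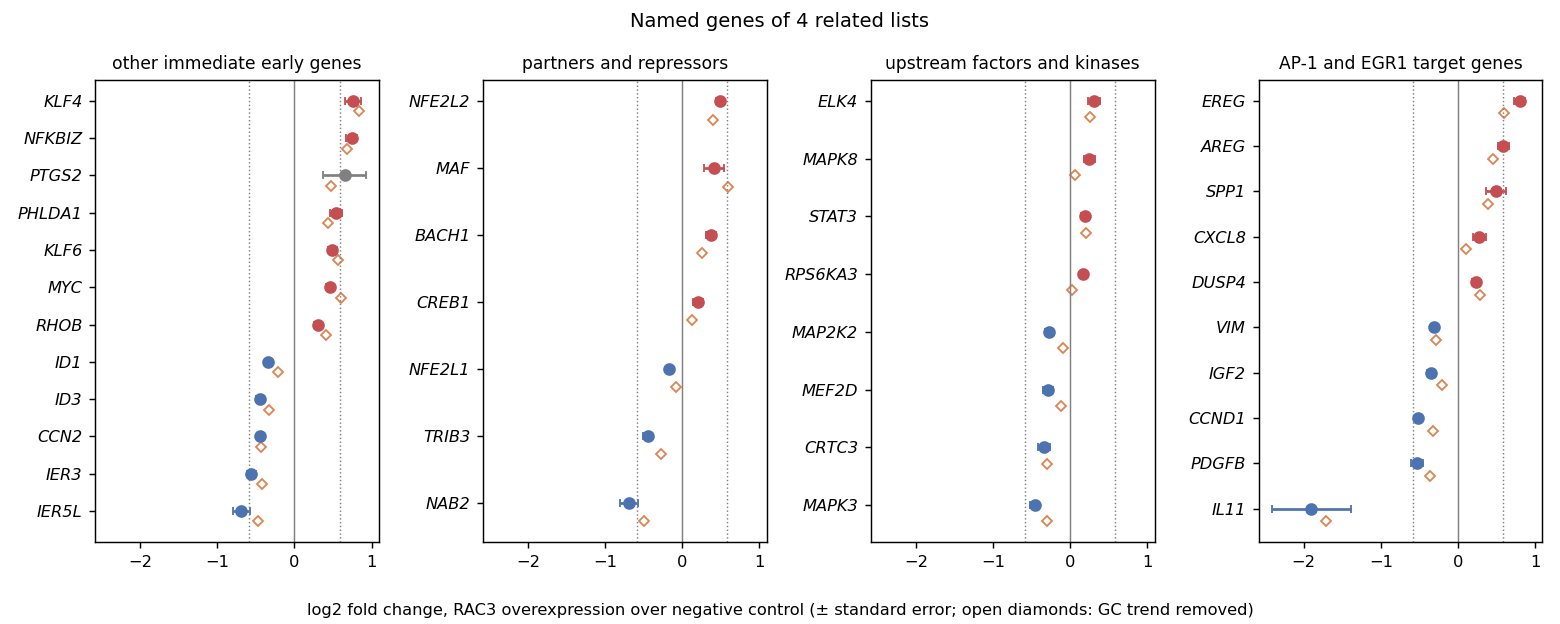
Log2 fold change with its standard error (horizontal axes) of the named genes in 4 related gene lists, red for called higher, blue for called lower and grey for not called, with open diamonds for the value with the GC trend removed and dotted lines at a fold of 1.5. The genes shown were picked by fold or by the smallest p in each direction, so that they lie on both sides of 0 and are mostly called follows largely from that choice. PTGS2 is the 1 grey gene.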

How the data were processed

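Poly(A)-selected RNA of Huh-7 cells was sequenced by the study on an Illumina NovaSeq instrument with a NEBNext Ultra kit. The authors deposited raw counts per gene and FPKM per sample, together with group means of FPKM that were not used. The notes of the submitters name HISAT2, Bowtie2 2.2.8, StringTie 1.3.1 and DESeq2 without roles; the genome build, annotation and lengths behind FPKM are not given in the sources used here.

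Differential expression was computed from the counts with edgeR 4.0.16 under R 4.3.3 (filterByExpr, TMM, two-sided quasi-likelihood F test, Benjamini-Hochberg adjustment over 12941 genes, no covariate). CPM values are TMM-normalized, and 95% intervals use the standard error of the log2 fold change. FPKM were tested with limma 3.58.1 on log2(FPKM + 0.1) or log2(FPKM + 1), which understates changes of low genes, and DESeq2 1.42.0 and limma-voom were alternatives. To remove the GC trend, a lowess curve (span 0.3) of each library's log2 deviation on median transcript GC was entered as an offset for 12863 genes. Of 20332 gene IDs, 20113 matched GENCODE 29, which gave positions, overlaps and GC content; promoters came from RefSeq (GRCh38.p14). The main edgeR fit was tested on simulated counts, and the alternative fits were not. An exact permutation test of 3 against 3 samples cannot go below 0.1 and was not used. Replicates were compared by chi-square of their counts, and no pair agreed within sampling noise. CPM floors cover counting error only.

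The 10 genes and all lists were chosen with earlier results of these data known. Named beside them were RAC3, from each other list the genes past fold 1.5 with p below 0.05 and up to 4 per direction with the smallest p among those called, and the 5 genes (mean of at least 50 counts) most correlated with EGR1 and with JUN. HOOK2 and AC025259.3 were named because they overlap a gene, and cell type markers as a check of the cells. A few genes of these lists enter the counts of their list but are not reported here one by one.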

Additional observations from a re-analysis of the deposited data

How the results depend on the processing

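Of 160 values of the 10 genes under the 16 alternative settings, 153 kept their direction and side of the threshold, 5 lost the call, 2 gained it and none reversed; of 606 values of 38 other named genes, 568 kept both and 38 lost the call. On log2(FPKM + 0.1) and log2(FPKM + 1), 3 of the 10 genes were called (JUNB, ATF3 and NR4A1), with JUND at -0.23 and -0.22 and FOSL2 at 0.38 and 0.31. The share of all genes called in these FPKM fits is not given here, so counts on FPKM stand without a background. FPKM per CPM varied among the samples from 0.504 to 0.679 for JUND and from 0.439 to 0.597 for NR4A1, which kept its call. For FOSL2 it varied from 0.145 to 0.157. Whether such variation is the cause of the lost calls was not tested. With the GC trend removed JUND was at -0.08. Without a filter on low counts JUN was called at -0.16 (edgeR adjusted p = 0.045). Leaving out 1 sample moved FOSL1 between 0.35 and 0.93, and it was called without NC1. By the fold threshold 2 genes, NR4A1 and FOSL1, passed with library size scaling, with limma-voom and on log2(FPKM + 0.1), 0 on log2(FPKM + 1) by limma, where 6 of 10 had an unadjusted p below 0.05 (NR4A1 alone passed in edgeR and DESeq2), and 1 to 2 when each sample was left out in turn, with FOSL1 beside NR4A1 without NC1 and JUNB beside it without NC2, NC3 or RAC3 replicate 2. With the GC trend removed FOSL1 (0.72) passed it in place of NR4A1 (-0.57). Of all genes, 605 passed the fold threshold in the main fit, 611 with library size scaling, 632 with limma-voom and 525 in DESeq2. It was passed by 562 to 660 of all genes when each sample was left out, and by 450 with the GC trend removed. Library size scaling moved the median log2 fold change of all genes from 0.00 to 0.06. Replicates with the same number did not deviate together (correlations -0.0873, -0.0455 and -0.0207 over 11221 genes), and with a replicate block 5 of the 10 genes and 3261 of all genes were called. With 3 samples per group and 23 to 61 counts for FOSL1, only large changes of the lowest genes were detectable.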
